A study of Mus musculus with 141 samples.

Results

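Hepatocytes of the liver lobule divide their work by position: those around the central vein (pericentral) and those around the portal triad (periportal) use different sets of genes, a pattern called zonation. The genes described here are 9 such genes, chosen by name from knowledge of the lobule and found by symbol among the 24423 genes listed for each library. Pericentral members numbered 6. They were Glul, which makes glutamine from ammonia and glutamate, Oat, an ornithine aminotransferase, Cyp2e1, a cytochrome P450 that oxidises ethanol and small solvents, Lgr5, a receptor for R-spondins, Axin2, a feedback inhibitor and target of Wnt signalling, and Rhbg, an ammonium transporter. Periportal members numbered 3. They were Gls2, the liver-type glutaminase, Hal, which opens the breakdown of histidine, and Sds, which breaks down serine.

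In the intact lobule, Wnt ligands and R-spondin from endothelial cells near the central vein act through beta-catenin and set the pericentral programme, and Glul is held to the last rows of hepatocytes before the vein. Periportal cells carry most of the urea cycle, gluconeogenesis and amino acid breakdown, and ammonia that escapes them is captured as glutamine by the pericentral cells. Whole pieces of liver mix all of these cells. A gene's level is therefore a sum over the lobule, and fewer cells of a type and less RNA per cell cannot be told apart.

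The samples came from 47 Collaborative Cross strains, which are recombinant inbred mice descended from a common set of founders. From 1 male mouse per strain, RNA of liver, lung and kidney was sequenced, giving 141 libraries. The groups were the 3 tissues, each with 47 libraries. All mice were adults of 8 to 12 weeks, fed the NTP 2000 wafer diet and kept in clear-air exposure chambers for 6 hours a day on weekdays, and tissues were snap-frozen after exsanguination under nembutal. With 1 mouse per strain, differences between strains and differences between individual mice cannot be told apart, and no strain has a replicate.

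Total counts ranged from 1738046 to 42158454 per liver library, from 2829104 to 17585682 in lung and from 3046695 to 15028553 in kidney. The 5 hepatocyte markers Alb, Apoa1, Apob, Ttr and Serpina3k summed to between 93126 and 212529 CPM (read counts relative to library size, here corrected with TMM factors, which allow for a few dominant genes) in liver, against 3.85 to 912 in lung and 118 to 3713 in kidney. Although ribosomal RNA had been depleted, the precursor of ribosomal RNA (Rn45s) and Lars2 held between 0.340 and 90.3% of the counts of a liver library, with a median of 43.2%. That share exceeded 75% in 6 liver, 5 lung and 2 kidney libraries. Reads outside these 2 genes fell to 491533 in the poorest liver library, so results on the liver are given with and without the 6 libraries where that matters.

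The members lie on 6 chromosomes. In NCBIM37, the build of the counts, Glul spans chr1:155747074-155756853 on the forward strand and Rhbg chr3:88046796-88058631 on the reverse strand. Sds spans chr5:120926540-120933941 and Cyp2e1 chr7:147949638-147960874, both forward, and Oat chr7:139749158-139768081 in reverse. Lgr5 is at chr10:114887367-115024836 in reverse, Hal at chr10:92951548-92979209 and Gls2 at chr10:127631782-127647060, both forward, and Axin2 is at chr11:108781663-108812097, also forward. Of the 50-base windows of their exons, 11.6% occurred more than once in the genome for Glul, 7.75% for Cyp2e1, 1.77% for Lgr5 and 0 for the other members, and such reads may be lost or shared with copies. In the gene records of GENCODE, Oat overlaps Fgfr2 on the same strand, and Gls2 and Sds overlap Spryd4 and Plbd2 on the opposite strand. Per the paper, the counts used RefSeq annotations instead. Whether reads of these members are affected is therefore uncertain and was not tested.

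The 250 bases before the start were found for 5 of the 9 members in a RefSeq table on GRCm38.p6, another build than that of the counts. The windows of Glul, Cyp2e1 and Hal are shown because these are the genes of the closest pericentral pair and of the periportal gene most opposed to it in the results on strains. Capitals mark TATAAA, the TATA box letters, and CTTTGAT, the core of a TCF/LEF site through which beta-catenin acts, on either strand. The Glul window is chr1:153899679-153899928, that of Cyp2e1 chr7:140763569-140763818 and that of Hal chr10:93488518-93488767, all forward.
Glul: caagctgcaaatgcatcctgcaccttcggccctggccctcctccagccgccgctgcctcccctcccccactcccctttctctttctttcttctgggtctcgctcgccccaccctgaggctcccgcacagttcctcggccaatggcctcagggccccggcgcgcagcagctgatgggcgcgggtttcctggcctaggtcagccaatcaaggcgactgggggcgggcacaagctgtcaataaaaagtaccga
Cyp2e1: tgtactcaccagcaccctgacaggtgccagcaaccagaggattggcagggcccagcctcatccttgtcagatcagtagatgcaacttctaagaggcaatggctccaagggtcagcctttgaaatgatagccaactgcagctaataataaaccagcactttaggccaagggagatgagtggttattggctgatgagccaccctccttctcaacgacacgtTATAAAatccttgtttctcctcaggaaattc
Hal: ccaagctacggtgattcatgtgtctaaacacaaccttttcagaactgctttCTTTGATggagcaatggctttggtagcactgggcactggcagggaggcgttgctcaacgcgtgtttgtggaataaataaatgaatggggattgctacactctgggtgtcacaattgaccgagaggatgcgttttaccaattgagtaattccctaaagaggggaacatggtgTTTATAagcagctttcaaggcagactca
Cyp2e1 had TATAAA on the forward strand 31 bases before the start. Hal had CTTTGAT 199 bases before it and TATAAA on the reverse strand, in capitals as TTTATA, 28 bases before it. Neither motif, nor the related CTTTGTT, was in these windows for Glul, Oat or Axin2. Among all 32851 windows of that length, 12.4% held TATAAA, 3.21% CTTTGAT and 5.03% CTTTGTT on either strand.

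In liver, the members spanned more than 3 orders of magnitude. Levels within liver are given as TPM, transcript abundances that account for gene length, after TMM scaling. Cyp2e1 was the highest, from 3856 TPM in CC045 through a median of 7280 to 17247 in CC021. Glul ranged from 407 in CC020 through 688 to 1175 in CC032, and Oat from 195 in CC044 through 547 to 1987 in CC021. The same strains stood at the top of these 3 enzymes, with CC012, CC021 and CC032 among the 4 highest for each of them.

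The Wnt-linked genes were low. Lgr5 ranged from 0.740 TPM in CC002 through a median of 2.38 to 5.56 in CC033, and Axin2 from 1.81 in CC002 through 3.94 to 9.12 in CC032. Rhbg ranged from 0.515 in CC029 through 10.8 to 23.8 in CC007, a 46.3-fold span that rests on 1 count in CC029 and 6 counts in CC004.

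Among the periportal genes, Hal ranged from 108 TPM in CC068 through a median of 257 to 420 in CC010. Sds ranged from 131 in CC035 through 236 to 467 in CC028. Gls2 was close to undetected, from 0 to 1.56 TPM with a median of 0.292, on a median of 3 counts and a highest count of 22. It was at 0 in 4 liver libraries and at 3 counts or fewer in 29, and is left out of every test. Gls2 is also the only member for which the files list more than 1 transcript (3 transcripts). Of all genes with 1 listed transcript, 43.3% passed the expression filter in liver (above 1 TPM in more than 50% of the libraries), against 17.7% of those with more than 1. The part of transcript number in the low level of Gls2 was not tested.

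By median, the order was Cyp2e1, Glul, Oat, Hal, Sds, Rhbg, Axin2 and Lgr5. Cyp2e1 lay above Glul in 47 of 47 strains, Oat above Hal in 46, Sds above Rhbg in 47, Rhbg above Axin2 in 44 and Axin2 above Lgr5 in 40. Glul lay above Oat in only 33 strains and Hal above Sds in 29, so these neighbours overlap. The spread across strains was not alike among members. The SD of log2 CPM was 0.94 for Rhbg, the 88.8th percentile of all genes tested in liver, 0.72 for Lgr5 and 0.66 for Oat, against 0.41 for Glul, 0.44 for Cyp2e1 and 0.40 for Hal. The median over all genes was 0.39. Counting error alone gives an SD of about 0.30 for Rhbg, 0.27 for Lgr5 and 0.22 for Axin2.

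**Figure D1:**
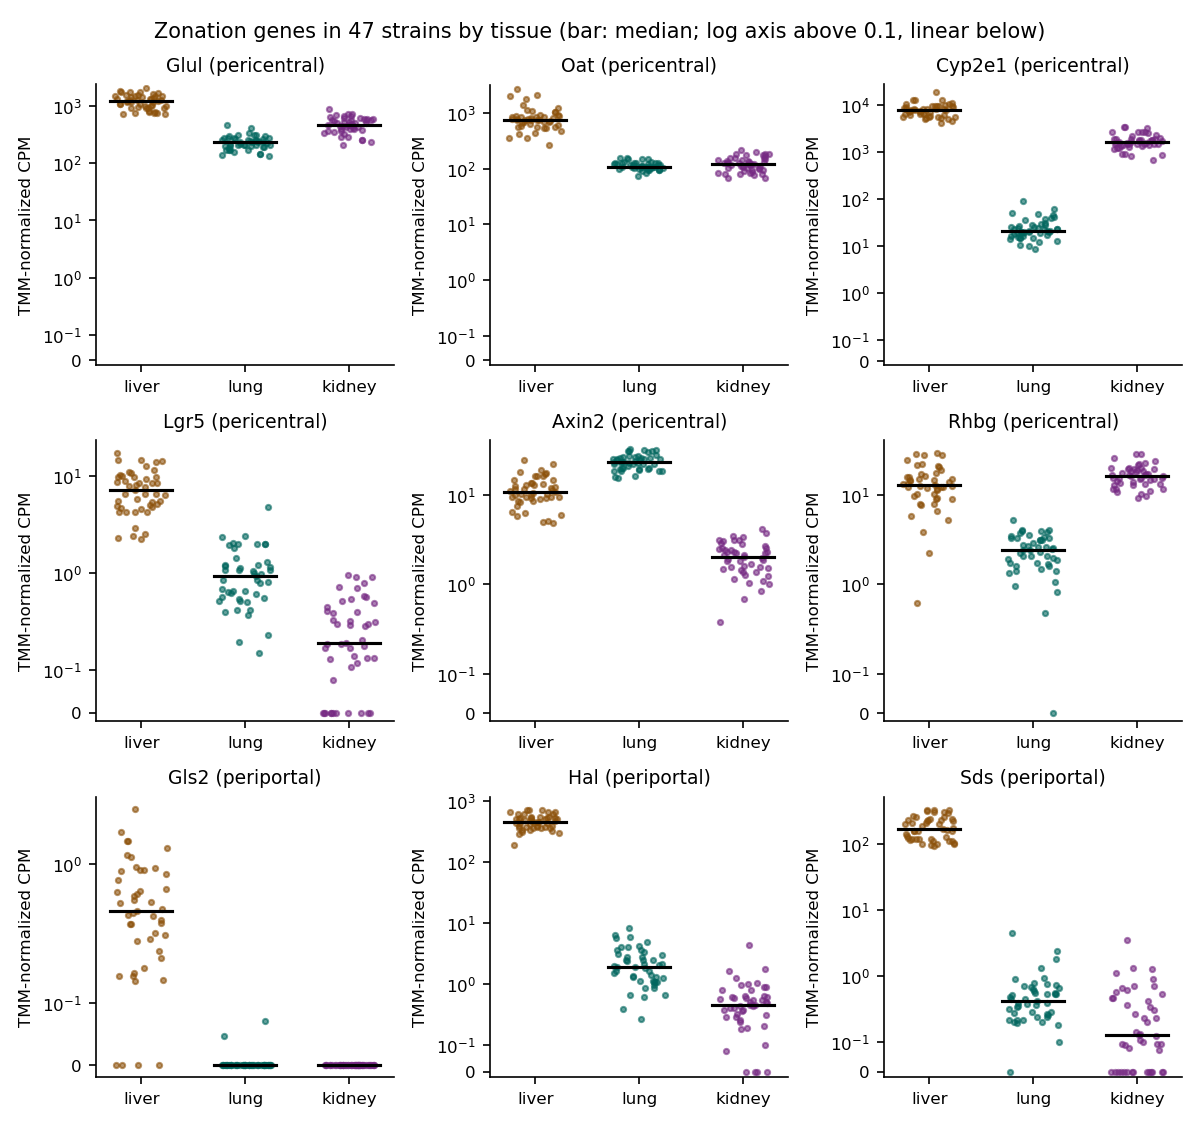
TMM-normalized CPM of the 9 genes (vertical axes, logarithmic above 0.1 and linear below) in liver, lung and kidney, with 1 point per strain and a bar at the median of 47 strains. Hal and Sds sit far above lung and kidney in every liver, Axin2 is highest in lung, and Rhbg overlaps between liver and kidney.

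Hal and Sds were far higher in liver than in lung or kidney, and Cyp2e1 far higher than in lung. The comparison between tissues asks where each gene is used, and was fitted on 12127 genes with limma-voom with strain as a block, since the 3 tissues of a strain come from 1 mouse. A gene was called at an adjusted p (q, Benjamini-Hochberg over all genes tested) of at most 0.1 and at least a 2-fold difference. The comparisons share libraries, so their counts are given side by side only. The filter of over 1 CPM in 30% of the 141 libraries can be met by the 47 livers alone. Sds (medians of 0.416 CPM in lung and 0.129 in kidney) and Lgr5 (0.936 and 0.187) passed it through liver. Their calls in favour of liver were largely set by that filter, as were those of listed genes low elsewhere. Counts of genes higher in liver are therefore a description. Between liver and lung, 7 of the 8 tested members were higher in liver, where 23.9% of all genes were, and 1 was higher in lung, where 31% were. Between liver and kidney, 7 members were higher in liver (15.6% of all genes) and 0 in kidney (20.8%). Between lung and kidney, 4 were higher in lung (25.5% of all genes) and 3 in kidney (20.6%). Those 4 were Axin2, Hal, Lgr5 and Sds. In kidney, Hal, Lgr5 and Sds had medians of 5, 2 and 2 counts. There, 18, 30 and 34 of the 47 libraries held 3 counts or fewer of them, so these differences rest on values near the floor. On log2(TPM + 1) without TMM factors, where the median gene was lower in liver than in lung by a log2 difference of -1.21, 4 members were called higher in liver than in lung.

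Hal had a median of 453 CPM in liver, from 189 to 712. In lung it had 1.92 (0.266 to 8.08) and in kidney 0.456 (0 to 4.33). Its log2 difference was 7.87 ± 0.10 (SE) from lung and 9.79 ± 0.12 from kidney. No liver overlapped any other tissue. Sds had a median of 172 CPM in liver (95.6 to 335), 0.416 in lung (0 to 4.47) and 0.129 in kidney (0 to 3.54), with log2 differences of 8.48 ± 0.11 and 9.65 ± 0.13. Gls2 had a median of 0.463 CPM in liver, was at 0 in 45 of 47 lung libraries and at 0 in every kidney library, where 3 counts correspond to a median of 0.222 CPM in lung and 0.336 in kidney.

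Cyp2e1 was also abundant in kidney. It had a median of 7924 CPM in liver (4264 to 18903), 1643 in kidney (697 to 3533) and 20.9 in lung (8.69 to 91.6). The log2 difference was 8.43 ± 0.09 from liver to lung, 2.22 ± 0.09 from liver to kidney and -6.22 ± 0.09 from lung to kidney, and no 2 tissues overlapped. Glul, which other tissues also use to make glutamine, differed less, with medians of 1242 CPM in liver (722 to 2077), 466 in kidney (207 to 886) and 231 in lung (133 to 465). Liver exceeded lung by 2.38 ± 0.08 and kidney by 1.35 ± 0.08 on the log2 scale. On log2(TPM + 1) without TMM factors these became 0.89 and 0.39, both under the 2-fold threshold.

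Oat had a median of 745 CPM in liver (270 to 2719), 110 in lung (74.1 to 156) and 120 in kidney (69.1 to 219). It was higher in liver by 2.79 ± 0.09 on the log2 scale against lung and by 2.69 ± 0.09 against kidney, with no overlap. Lung and kidney were not told apart for Oat, with a log2 difference of -0.10 ± 0.09 (limma q = 0.287), a sign that turned under 4 other scalings or tools, which moved the median of all genes in the same direction.

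Axin2 was the one member called lower in liver than in lung. Its median was 23.6 CPM in lung (15.5 to 32.6), 10.8 in liver (4.88 to 24.7) and 2.01 in kidney (0.376 to 4.17). Lung lay above liver in 47 of 47 mice, by a log2 difference of -1.09 ± 0.09 (liver minus lung), and every lung and every liver lay above every kidney. Lgr5 followed another order, with 7.14 CPM in liver (2.24 to 17), 0.936 in lung (0.150 to 4.79) and 0.187 in kidney (0 to 0.938). It was higher in liver by 2.81 ± 0.16 against lung and by 4.53 ± 0.17 against kidney on the log2 scale.

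Rhbg was higher in kidney than in liver, by an amount that depended on the scaling. Its median was 16.1 CPM in kidney (9.32 to 28.8), 12.9 in liver (0.622 to 29) and 2.41 in lung (0 to 5.24). Liver minus kidney gave a log2 difference of -0.33 ± 0.10 (limma q = 0.00105), which did not reach a 2-fold difference, and liver was the higher in 12 of 47 mice. On log2(TPM + 1) it was -1.28 and on log2(TPM + 0.1) it was -1.39, both called, where the median of all genes was at -0.72 and -0.94. Over the members, 5 of 8 had every liver above every lung, where 14% of all genes did. For liver above kidney the count was 6 of 8, against 6.28% of all genes, and for kidney above lung 2 of 8, against 12.5%.

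Hepatocyte markers were present at low levels in lung and kidney, beside the low values of the periportal genes there. In each mouse, the level in lung was therefore taken as a share of that in liver. Median shares were 0.0533% for Alb and 0.0877% for Apob in lung, against 0.451% for Hal, 0.250% for Sds and 0.289% for Cyp2e1. The share of Hal exceeded that of all 5 hepatocyte markers in 42 of 47 lungs, that of Cyp2e1 in 40 and that of Sds in 33. Other liver genes did so as well, Otc and Amdhd1 in 22 lungs each, Cyp1a2 in 8, Gulo in 6 and Cps1 in 5. Among the markers, Apob exceeded the others in 26. Lung Sds had a median of 6 counts, with 13 libraries at 3 or fewer. In kidney the share was 0.105% for Hal and 0.0647% for Sds, on medians of 5 and 2 counts. Of the markers, Alb (0.0474%), Apoa1 (0.0435%) and Serpina3k (0.0298%) had lower median shares than these, and Apob (1.81%) and Ttr (1.25%) far higher ones. Hal exceeded all 5 markers in 0 mice and Sds in 1, a count set by Apob and Ttr.

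The main question in liver was whether strains with more of the pericentral genes have less of the periportal ones. Levels were ranked, put on a normal scale and correlated over the 47 strains, with 100000 permutations of the strains and adjustment over all 72008 pairs of a member with any of the 9002 genes that passed the expression filter. In that set, 0.225% of pairs had a positive r at q of at most 0.1 and 0.172% a negative one. At an unadjusted permutation p under 0.05 the shares were 5.63% and 5.16%.

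The pericentral genes mostly varied in the same direction. Of their 15 pairs, r was positive in 12 and 1 pair was called, with 7 at an unadjusted p under 0.05, all positive. The called pair was Glul with Cyp2e1, at r = 0.611 (permutation p = 3e-05, q = 0.0488, Spearman rho = 0.568, permutation p = 6e-05). With the 2 strains of most extreme Glul left out, r was 0.527, with q = 0.138. Without the 6 libraries over 75% of Rn45s and Lars2, r was 0.580 and q was 0.119. The pair was thus not called in either smaller set, with r of similar size.

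Glul also had r = 0.457 with Oat (permutation p = 0.00128, q = 0.151, rho = 0.407, 0.330 without the 2 strains). Oat with Cyp2e1 gave r = 0.442 (permutation p = 0.00196, q = 0.176, rho = 0.360, 0.334 without the 2 strains). These were the 3 highest r among the pericentral pairs, an order that did not hold by Spearman's rho or without the 2 strains, where Glul with Lgr5 (0.455 and 0.401) and Glul with Rhbg (0.412 and 0.418) lay above Glul with Oat. Lgr5 had r = 0.391 with Glul, 0.294 with Cyp2e1 and 0.291 with Axin2, and Rhbg had r = 0.368 with Glul, none of them called. Axin2 was nearly unrelated to Cyp2e1, at r = 0.01.

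Pericentral and periportal genes tended to opposite directions, without a called pair. Of the 12 pairs, r was negative in 10 and positive in 2 and ranged from -0.378 to 0.157. These pairs, like the pericentral ones, share genes and mice, so their directions are not independent observations. At an unadjusted p under 0.05 there were 3, all negative, and 0 passed the adjusted threshold. Cyp2e1 with Hal was the most opposed, at r = -0.378 (permutation p = 0.00887, q = 0.281, rho = -0.387, -0.351 without the 2 strains farthest in Cyp2e1). Sds was most opposed to Lgr5, at r = -0.345 (permutation p = 0.0181, q = 0.342, rho = -0.373, -0.328 without the 2 strains farthest in Lgr5). Glul with Hal gave r = -0.307 (permutation p = 0.0358, q = 0.415, rho = -0.317, -0.189 without the 2 strains farthest in Glul). The periportal pair, Hal with Sds, gave r = 0.346 (permutation p = 0.0179, q = 0.341, rho = 0.304, 0.341 without the 2 strains farthest in Hal). On the TPM without TMM scaling the same pair was called, at r = 0.627 (q = 0.000139), one of the values that depend on the scaling. In those values 98.4% of all liver genes had a positive r with Hal and 98.3% with Sds.

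These directions depended on the scaling of the libraries. On TPM without TMM factors, 11 of the 12 pericentral to periportal pairs were positive, with 7 called, and 12 of the 15 pericentral pairs were called. There, 88.7% (Lgr5) to 98.4% (Hal) of all liver genes had a positive r with a member. The share of all pairs called on that scaling is not given here. In those values the median r of a member with all liver genes was between 0.18 and 0.48, whereas with TMM factors it lay between -0.04 and 0.03. Cyp2e1 with Hal was at 0.32 there. When TPM was rescaled to a total that leaves out Rn45s and Lars2, without TMM, 11 of the 12 pairs were negative and 14 of the 15 pericentral pairs positive. DESeq2 size factors and unranked log2 CPM each gave 10 negative pairs of 12, and so did the libraries under 75%.

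**Figure D2:**
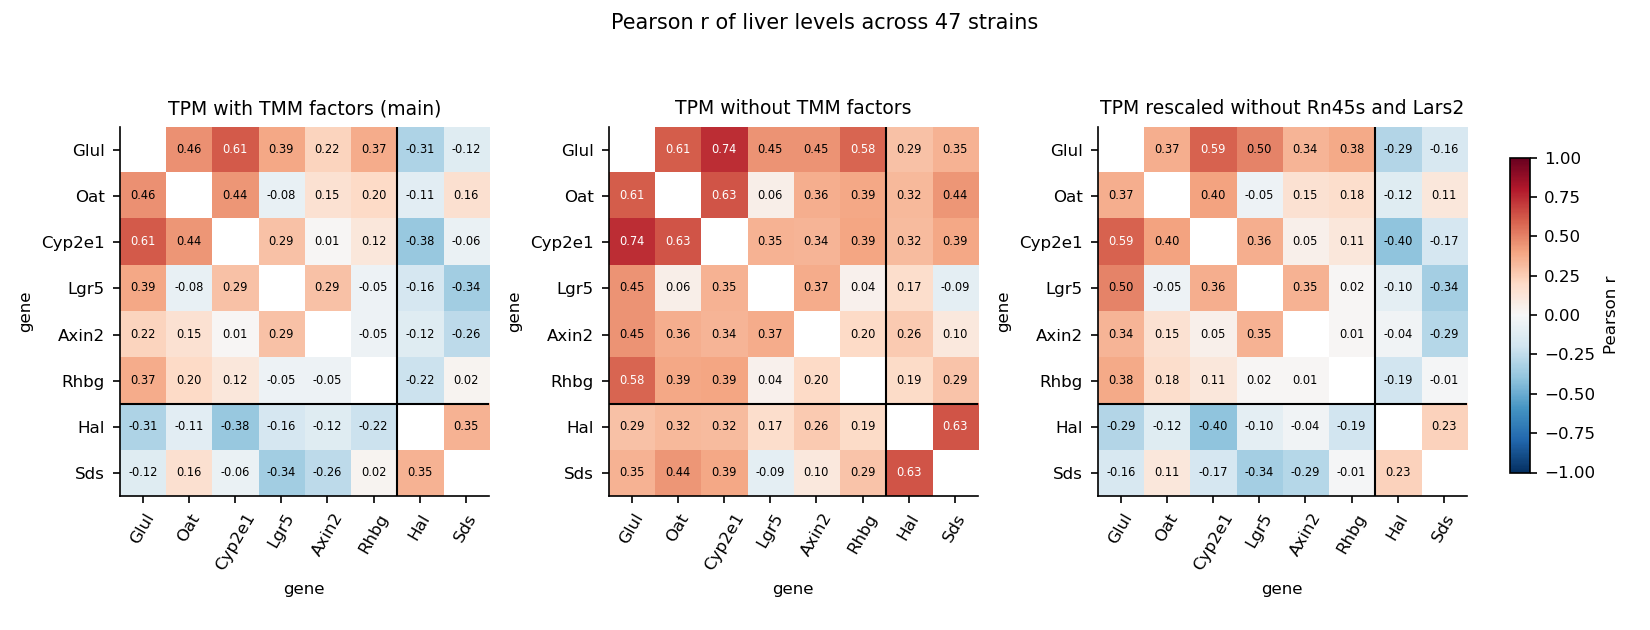
Pearson r over 47 liver libraries for each pair of the 8 expressed genes (both axes), coloured from -1 to 1, on 3 scalings, with lines between the 6 pericentral and the 2 periportal genes. The off-diagonal block is mostly negative on the left (10 of 12) and right (11 of 12) and mostly positive in the middle (11 of 12), where TMM factors were left out.

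**Figure D3:**
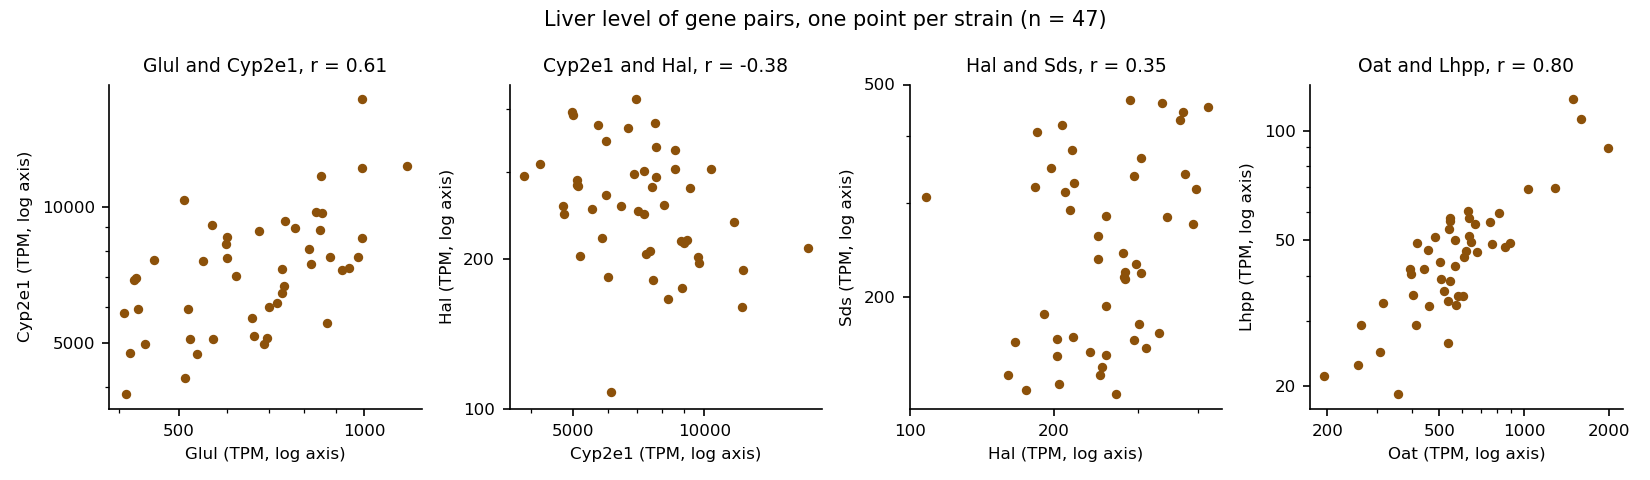
Liver TPM after TMM scaling, on log axes, with 1 point per strain (n = 47). Glul and Cyp2e1 rise together (r = 0.61), Cyp2e1 and Hal run opposite (r = -0.38, not called), Hal and Sds have r = 0.35 (not called), and Oat and its neighbour Lhpp lie closest to a line (r = 0.80).

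As a description of strains, the rank-based levels were averaged over the 6 pericentral and the 2 periportal genes. CC012 stood highest in pericentral minus periportal level (2.76 SD units), followed by CC032 (2.10). The next 3, CC059 (1.59), CC033 (1.59) and CC031 (1.53), were all among the 6 libraries over 75% of Rn45s and Lars2. CC010 stood lowest (-2.53), followed by CC002 (-2.14) and CC028 (-1.92). CC012 was among the 4 highest strains for Glul, Oat, Cyp2e1 and Axin2 and among the 3 lowest for Hal, and CC010 was the highest for Hal and among the 3 lowest for Axin2.

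The library share of Rn45s and Lars2 moved with some members. Over all 9002 liver genes, 2.6% rose with that share and 7.79% fell at q of at most 0.1. Lgr5 was the one member called, at r = 0.424 (permutation p = 0.00297, q = 0.0474, rho = 0.360, 0.315 without the 2 libraries farthest in share), and 3 of its 4 highest strains, CC029, CC031 and CC033, were among the 6 libraries over 75%. Sds had r = -0.341 (permutation p = 0.0181, q = 0.137) and Hal -0.258 (q = 0.320). Glul, Oat and Rhbg had r between -0.09 and -0.02.

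Other genes with known zonation were set beside the members from lists of 17 pericentral and 18 periportal genes, of which 16 and 17 passed the expression filter. Over the 96 pairs of a pericentral member with another pericentral gene, 7 were called, all positive, where 0.225% of all pairs were called positive. At an unadjusted p under 0.05, 28.1% were positive, against 5.63% of all pairs, and 0 negative, against 5.16%. Against the other periportal genes, 102 pairs gave 0 called positive and 2 called negative, with 6.86% positive and 13.7% negative at an unadjusted p under 0.05. Lgr5 gave 6 of these 14 negative pairs. The shares over all genes differed by member. At that p, 977 of 9001 genes were negative with Lgr5 and 763 positive with Sds. The 7 called pairs came from Glul, Oat and Cyp2e1 alone.

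Cyp2e1 was closest to Cyp1a2, a pericentral P450 that oxidises caffeine, at r = 0.726 (permutation p = 1e-05, the smallest these permutations can give, q = 0.0424, rho = 0.677, 0.651 without the 2 strains). It was also called with Lect2, a secreted hepatocyte protein, at r = 0.56, and with Rgn, regucalcin, at r = 0.56. Glul was called with Gulo, the last enzyme of vitamin C synthesis, at r = 0.59, with Cyp1a2 at 0.59 and with Lect2 at 0.57, and Oat with Lect2 at 0.52. Over the 16 genes, the median r was 0.354 for Cyp2e1, 0.256 for Glul and 0.184 for Oat. For Lgr5 it was -0.01, for Axin2 0.06 and for Rhbg 0.05, all close to 0. Without the libraries over 75%, Cyp2e1 with Cyp1a2 (r = 0.684, q = 0.060) and with Lect2 (r = 0.648, q = 0.0847) stayed called, as did Glul with Gulo (0.630) and Lect2 (0.643), while Glul with Cyp1a2 had q = 0.111, Cyp2e1 with Rgn q = 0.119 and Oat with Lect2 q = 0.119.

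Hal and Sds mostly had positive r with the periportal list, and likewise with the general hepatocyte markers. Over their 34 pairs with the other periportal genes, 4 were called, all positive, where 0.225% of all pairs were called positive. At an unadjusted p under 0.05, 29.4% were positive, against 5.63% of all pairs, and 0 negative, against 5.16%. Hal was called with Gldc, of glycine breakdown, at r = 0.57. Sds was called with Arg1 at r = 0.59 and Asl at 0.51, enzymes of the urea cycle, and with Pck1, of gluconeogenesis, at 0.53. Against the other pericentral genes, 32 pairs gave 0 calls. With the 5 hepatocyte markers all 10 pairs were positive, 20% at an unadjusted p under 0.05 and 0 called. The median r was 0.135 for Hal and 0.223 for Sds with these markers, against 0.112 and 0.233 with the periportal list, and the difference between the lists was not tested. Without the libraries over 75%, Sds with Arg1 stayed called (q = 0.0993) and the other 3 did not, with q of 0.140 for Gldc, 0.128 for Pck1 and 0.191 for Asl, while r stayed between 0.488 and 0.618.

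The called negative pairs were Cyp2e1 with Cdh1, E-cadherin, at r = -0.51 and Lgr5 with Fbp1, a gluconeogenic enzyme, at r = -0.56. Without the libraries over 75% they had r = -0.600 (q = 0.0993) and r = -0.503 (q = 0.178). Regressing out the share of Rn45s and Lars2 gave q = 0.135 and q = 0.165. Outside the zonation lists, Oat was called with Igfbp1, a fasting-induced secreted protein, at r = 0.64, and Cyp2e1 with the same gene at 0.52. Hal was called with the clock gene Per2 at r = -0.52. With the 9 expressed genes of the fasting and feeding list, the median r was 0.08 for Oat and -0.11 for Cyp2e1. Over 54 pairs of the pericentral members with that list, 2 were called. At an unadjusted p under 0.05, 13.0% were positive and 11.1% negative, beside 5.63% and 5.16% of all pairs. Hal with Per2 was the 1 call in 8 pairs of Hal or Sds with 4 clock genes, 25% of them negative at that p. Without the libraries over 75%, Oat with Igfbp1 stayed called (r = 0.626, q = 0.060). Cyp2e1 with Igfbp1 (r = 0.579, q = 0.119) and Hal with Per2 (r = -0.476, q = 0.214) did not. The hour of tissue collection was not analysed here.

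**Figure D4:**
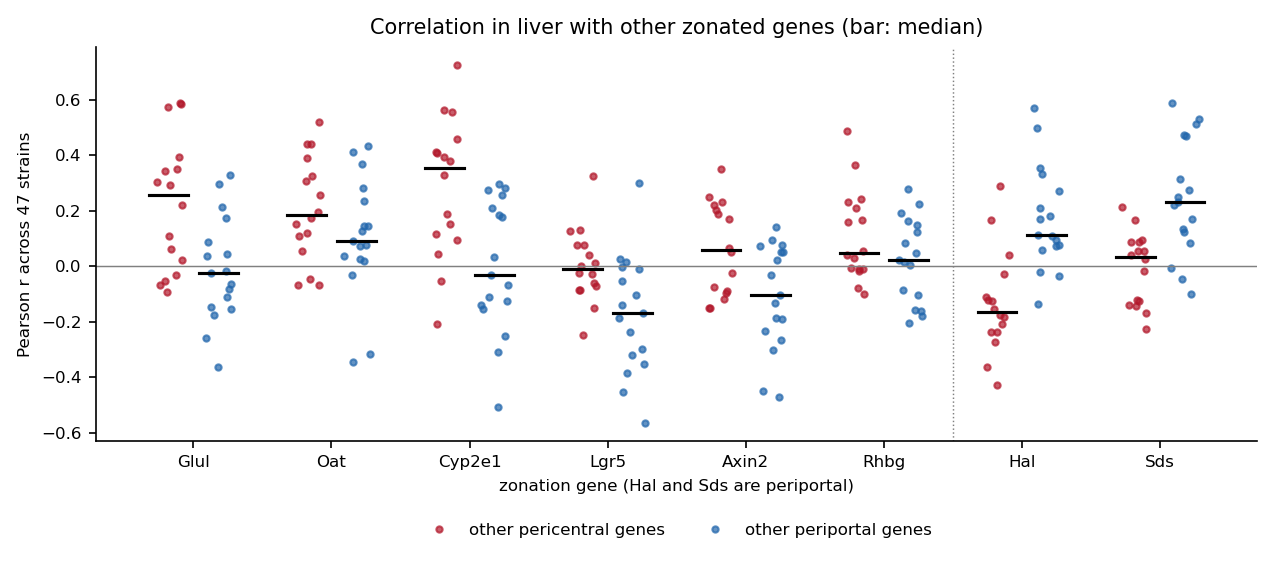
Pearson r over 47 liver libraries (vertical axis) of each of the 8 expressed genes (horizontal axis) with 16 other pericentral genes in red and 17 other periportal genes in blue, with a bar at each median. The red median lies above the blue for the 6 pericentral genes and below it for Hal and Sds, with medians of 0.354 and -0.03 for Cyp2e1 and of -0.17 and 0.112 for Hal.

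Genes of Wnt signalling were a mixed group. Of 20 listed, 9 passed the expression filter in liver, all with 1 listed transcript, whereas 7 of the 11 that did not pass had more than 1, Ctnnb1 (beta-catenin, 0.441 TPM) and Tcf7l2 (0.102 TPM) included. Over the 54 pairs with a pericentral member, 1 was called, Lgr5 with Rnf43, a ligase that removes Wnt receptors and is itself a Wnt target, at r = 0.54 (q = 0.212 without the libraries over 75%). At an unadjusted p under 0.05, 18.5% were positive and 1.85% negative, beside 5.63% and 5.16% of all pairs. Rnf43 also had r = 0.49 with Axin2, and Rspo3, the R-spondin of the central vein, had r = 0.43 with Glul, 0.42 with Rhbg and 0.36 with Axin2, none of them called. Between tissues, 5 of the 17 tested Wnt genes were higher in liver than in lung, where 23.9% of all genes were, and 5 lower, where 31% were, with Rspo3 higher in liver by 2.96 on the log2 scale and Nkd1 and Apcdd1 lower, at -3.57 and -4.40.

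The enzymes and carriers of ammonia, glutamine, ornithine and histidine gave positive pairs with Hal and Sds. Over 28 pairs of Hal or Sds with the 14 expressed genes of that list, 9 were positive at an unadjusted p under 0.05, none negative and 0 called. Hal had r = 0.50 with Uroc1, the next step of histidine breakdown, 0.44 with Glud1 and 0.39 with Amdhd1. Sds had r = 0.48 with Glud1 and 0.47 with Cps1, the entry of ammonia to the urea cycle. Against the pericentral members, 84 pairs gave 3.57% positive and 7.14% negative at an unadjusted p under 0.05, beside 5.63% and 5.16% of all pairs. There was 1 call, Lgr5 with the ornithine carrier Slc25a15 at r = -0.50 (q = 0.285 without the libraries over 75%). Slc1a2 and Cps1 are in this list and also in the zonation lists, so their pairs were counted there too. The positive pairs at that p were all of Slc1a2, with Glul, Oat and Cyp2e1. Of the 17 genes of this list tested between tissues, 11 were higher in liver than in lung (23.9% of all genes) and 12 higher than in kidney (15.6%). The ammonium transporter Rhcg was lower in liver than in kidney, with a log2 difference of -8.10.

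The rest of the 2 zonation lists was mostly higher in liver as well, among genes that could pass the filter through liver alone. Cyp2c37 and Cyp2c50, at medians of 0 CPM in lung and kidney, were such genes. Of 15 other pericentral genes tested, 14 were higher in liver than in lung (23.9% of all genes) and 12 higher than in kidney (15.6%). Their median log2 differences were 9.68 and 9.13. Slc13a3 and Csad were instead higher in kidney, at -5.13 and -2.20. Of 17 other periportal genes, 14 were higher in liver than in lung and 12 higher than in kidney, beside the same shares of all genes. Their medians were 8.57 and 2.11. Pck1, used in kidney too, had a liver minus kidney difference of -0.13. Cdh1 was lower in liver than in either.

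Each member was also set against all 9001 other expressed liver genes. Lgr5 had the most called genes, 44 positive and 69 negative, which fell to 4 and 5 when the share of Rn45s and Lars2 was regressed out and to 3 and 0 without the libraries over 75%. Cyp2e1 had 35 and 12, which became 10 and 1 without those libraries, and Hal had 26 and 8, which became 0 and 2. Sds went from 22 and 3 to 2 and 0, Oat from 16 and 9 to 3 and 1, Axin2 from 10 and 16 to 1 and 1, Glul from 9 and 1 to 3 and 0 and Rhbg from 0 and 6 to 1 and 1. With fewer libraries the threshold is also harder to pass.

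The highest r of any member in liver was with a neighbour on the chromosome. Oat had r = 0.799 with Lhpp (permutation p = 1e-05, q = 0.0424, rho = 0.756, 0.773 with the 2 outermost strains left out), which lies 34239 bases from Oat on chromosome 7 and encodes a phosphatase. Without the libraries over 75%, r was 0.837. Sds likewise had r = 0.590 with Sdsl, a paralog 3720 bases away on chromosome 5 (permutation p = 3e-05, q = 0.0488, rho = 0.584, 0.572 without the 2 strains). Without the libraries over 75%, Sds with Sdsl had r = 0.580 and q = 0.119 and was not called. Of the 50-base windows of Sds, 837 of 1158 lie within 1 exon, and 0 of these occur more than once in the genome. The part of shared reads in this pair was not tested. Sds also went with Marc1 (r = 0.640) and with Got1 (0.594), the cytosolic aspartate aminotransferase. Oat further had Igfbp1 and Hpd, of tyrosine breakdown, at 0.635 and 0.579.

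Hal was closest to Agpat2, of triglyceride synthesis (r = 0.600), Mrps22 (0.586) and Gpd1 (0.580), and most opposed to Lmo7 (r = -0.666, q = 0.0424). Lgr5 was closest to Leng8 (0.618), Bahcc1 and Gltscr1 and most opposed to Spcs1 (-0.621). Without the libraries over 75%, Leng8 (q = 0.157) and Spcs1 (q = 0.137) were no longer called. Axin2 was closest to Zfp335 (0.568), 1110028F11Rik and Esyt1. Rhbg had no positive call, its closest gene being Gulo (0.487, q = 0.111), and was most opposed to Prok1 (-0.613). After Cyp1a2, Cyp2e1 was closest to Auh, of leucine breakdown (0.642), and Chp1 (0.610).

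In lung, where Hal and Sds are low (medians of 24 and 6 counts), both had positive r with Cyp2e1. Lung Sds was at 3 counts or fewer in 13 of 47 libraries. In liver, r with Cyp2e1 was instead -0.378 for Hal and close to 0 for Sds (-0.06). Cyp2e1 had r = 0.455 with Hal (permutation p = 0.00124, q = 0.0513, rho = 0.467) and r = 0.433 with Sds (permutation p = 0.00244, q = 0.0729, rho = 0.425) over 47 lungs, where 2.46% of all pairs of a member with a gene were called positive. The difference from liver was not tested. CC010 had the lung with the most hepatocyte markers (912 CPM) and was also the highest lung for Cyp2e1, Hal and Sds, and CC015, with 702 CPM of markers, was the second for Cyp2e1 and Sds. Without these 2 lungs r was 0.339 (q = 0.247) and 0.307 (q = 0.322). Ttr, one of the hepatocyte markers, had r = 0.457 with Cyp2e1, 0.326 with Hal and 0.331 with Sds in lung, and the part of hepatocyte RNA in these pairs was not tested.

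None of the 10 pericentral pairs that could be formed in lung was called, nor any of the 10 in kidney, where 0.691% of all pairs of a member with a gene were called positive. Glul with Cyp2e1 gave r = 0.279 in lung (q = 0.354) and 0.276 in kidney (q = 0.414). Lung Glul was closest to Zbtb16 (r = 0.826), Sult1a1 (0.800) and Per2 (0.796), a set in which Zbtb16 and Per2 are known to respond to glucocorticoids. Lung Rhbg was closest to Tmem79 (0.715) and Rab25 (0.707), which lie 41444 and 254818 bases from it on chromosome 3. In kidney, Rhbg was closest to Tmem213 (0.616) and Slc26a4 (0.594), the latter known from the intercalated cells of the collecting duct, in which Rhbg also works.

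Last, the same gene was compared between tissues of the same mice. No member was called in any pair of tissues, with 0 of 7 between liver and lung, 0 of 5 between liver and kidney and 0 of 5 between lung and kidney, and 0 at an unadjusted permutation p under 0.05. Among all genes, 13.1%, 23.1% and 17.1% were called positive in these pairs and 22%, 30% and 24.9% were positive at an unadjusted p under 0.05. The highest were Cyp2e1 between liver and lung at r = 0.272 (permutation p = 0.0642, q = 0.252, rho = 0.289) and Glul between liver and kidney at r = 0.252 (permutation p = 0.0884, q = 0.234, rho = 0.235). With the 2 most extreme strains left out, Cyp2e1 had r = 0.392 and q = 0.0882 between liver and lung. Axin2 and Rhbg had r of -0.01 and 0.02 between liver and lung. Apart from that value of Cyp2e1, which was within the threshold of 0.1, no relation between a member's level in liver and in the other tissues was detected, beside medians over all genes of 0.136 (liver with lung), 0.184 (liver with kidney) and 0.153 (lung with kidney).

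**Figure D5:**
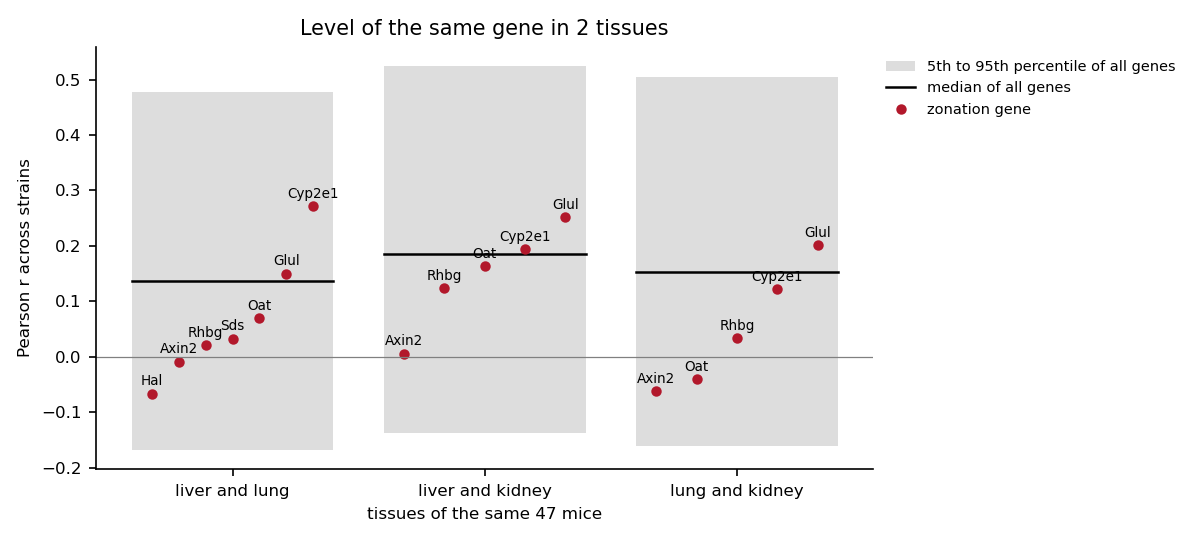
Pearson r over 47 mice (vertical axis) between the levels of the same gene in 2 tissues, for the zonation genes that passed the filter in both (red points), with the median of all genes (line) and their 5th to 95th percentile (grey). All points lie inside the grey band, and the highest is Cyp2e1 between liver and lung at 0.272.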

How the data were processed

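RNA-seq was read from 141 deposited tables, 1 per library, of liver, lung and kidney of 47 strains. Per the submitters' processing notes and the study's methods, reads of 50 bases were aligned with STAR 2.5.3a to strain-specific versions of mm9 and quantified with RSEM. The expected counts deposited by the authors were rounded (25 values were not whole). The TPM deposited by the authors was scaled by TMM factors within each tissue, and the authors' FPKM was left aside as deposited. Groups came from the tissue labels and pairing from the strain labels, since the 3 tissues of a strain come from 1 mouse.

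Genes were kept at over 1 CPM in 30% or more of the libraries and compared with limma-voom (limma 3.58.1, edgeR 4.0.16, R 4.3.3), with strain as a block. The study's batch covariate is not in the labels and was left out. Its K-means filter on single libraries was not applied. Correlations were computed on ranks put on a normal scale (Blom offset 0.375) for genes above 1 TPM in over 50% of the libraries, 100000 two-sided permutations and Benjamini-Hochberg adjustment (scipy 1.17.1, numpy 2.4.6 and pandas 2.3.3 in Python 3.11.15). Depth limits low genes: 3 counts equal a median of 0.560 CPM in liver, counting error only.

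The members and gene lists were chosen with earlier results of these data known. Named genes are the 9 members, the 3 highest and 3 lowest in r with each member in liver, of which a part is given, and listed genes past a threshold. Genes named from lung and kidney were chosen after their values were seen. The tests were checked on simulated data, the correlations with simulated relations stronger than those found between members. Alternatives covered the scaling, thresholds, filters, DESeq2 1.42.0, edgeR's quasi-likelihood test, the block, Spearman correlation, covariates and extreme strains. Settings on Rn45s and Lars2, the lung and kidney correlations and those without 2 lungs were added after seeing the data. Red blood cell, lymphocyte and bile duct markers were listed too, and Hba-a1, Hbb-b1 and Hbb-b2 were at 0 in every liver library.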

Additional observations from a re-analysis of the deposited data

How the results depend on the processing

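Between tissues, all 24 member differences kept their direction and side of the threshold without the replicate block, where the pairing of tissues was ignored (7 higher in liver than in lung, 7 higher in liver than in kidney), and without the 10 strains with a library over 75% of Rn45s and Lars2. On log2(TPM + 1), 4 members were higher in liver than in lung and 2 higher in lung than in kidney. Kidney exceeded liver for 1 member, Rhbg, on log2(TPM + 1), on log2(TPM + 0.1) and without the fold threshold. Oat's lung minus kidney difference turned to 0.047 with DESeq2, 0.036 with DESeq2 size factors in limma-voom and 0.43 on both log2 TPM scales. The median of all genes for lung minus kidney moved alongside, from 0.04 to 0.18 with DESeq2, 0.18 with its size factors, 0.47 on log2(TPM + 1) and 0.56 on log2(TPM + 0.1), and for liver minus lung to -0.31, -0.30, -1.21 and -1.52. Both log2 TPM scales ended the calls of Glul in all 3 comparisons.

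In liver, called pericentral pairs numbered 12 on TPM without TMM, 2 on log2 CPM and on TPM rescaled without Rn45s and Lars2, and 0 without the 2 farthest strains or without the 6 libraries over 75%. Called pericentral to periportal pairs numbered 7 and called periportal pairs 1 on TPM without TMM. Positive pericentral to periportal pairs numbered 11 on TPM without TMM and 1 with Spearman, without the 2 strains and on rescaled TPM. TPM without TMM reversed Cyp2e1 with Hal (0.319), Glul with Hal (0.295), Axin2 with Sds (0.102), Cyp2e1 with Col4a2 (0.0644), Hal with Lmo7 (0.214) and Oat with Svil (0.0284). The cause was not tested. Between liver and lung, 1 member was called without the 2 strains. Of the recomputed counts of members or pairs, 133 stayed within 1.5 times and 17 did not. Gls2 could not be resolved, at 1 mouse per strain and a median of 3 counts in liver. Its highest count, 22 in CC010, stood at 0.393 TPM after TMM scaling. The part of depth in this was not tested.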
